A study of Bos taurus with 6 samples.

Results

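Rab GTPases are the largest family of small GTPases that direct membrane traffic. Each Rab sits on its own set of membranes and cycles between a GTP-bound form, which recruits effector proteins, and a GDP-bound form. Exchange factors switch a Rab on, GTPase-activating proteins switch it off, and prenyl groups added by a Rab-specific transferase anchor it to the membrane. A set of Rabs that all cells use (here called housekeeping Rabs) moves cargo between the endoplasmic reticulum, the Golgi, endosomes and lysosomes. The RAB3 and RAB27 genes, RAB26 and RAB37 (secretory Rabs) serve the docking and release of secretory granules and vesicles.

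The members were the gene entries named RAB with a number and at most 1 letter from A to D. Of 32183 gene entries, 60 carried such a name, and they represented 59 names, since RAB39A had 2 entries. The secretory list held 8 of them (RAB3A, RAB3B, RAB3C, RAB3D, RAB26, RAB27A, RAB27B and RAB37), the housekeeping list held 18, and 34 belonged to neither list. The members lay on 27 chromosomes. Starts and ends are those of the deposited tables, for which the submitters' processing notes name the bovine build UMD3.1. Chromosome names were inferred. Each sequence in the deposited tables was given the chromosome of most of its genes in the study's lists of changed genes.

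RNA was sequenced from bovine rumen epithelial primary cells (REPC), cells grown from the lining of the forestomach of a Holstein bull calf that was 2 weeks old and had received only milk replacer. Butyrate, a short-chain fatty acid that ruminal microbes produce and an inhibitor of histone deacetylases, was given at 5 mM for 24 h to 3 cultures, and 3 cultures without it were the controls. The cells came from 1 calf, and the study calls the cultures of a group biological replicates without saying how they were started, so p-values measure the spread between these cultures and not between animals. Levels are FPKM (fragments per kilobase of transcript, scaled to the number of mapped fragments in the library). They were compared between cultures as deposited, and each carries a confidence interval from the program that made it. The tables hold no counts, and library read totals given with the study were not used here, so the precision of a value is taken from that interval. Summed FPKM ran from 678035 to 681912 in control and from 619401 to 629037 after butyrate, so this scaling did not make the sums equal. Rescaling each culture to the same sum (TPM) moved the median log2 fold change of all tested genes by 0.12.

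The epithelial label was compared with its markers. The 11 epithelial markers were all tested, and 8 rose and 1 fell. Their summed FPKM was 2440–2550 in control and 5102–5197 after butyrate, with KRT8 the most abundant in control at 1380. Much of the added sum came from KRT19 (492 to 1953), KRT8 (1380 to 1971) and KRT14 (72.5 to 500). KRT5 fell from 401 to 356, and CDH1 (49.8 and 48.9) and DSP (7.96 and 7.90) did not pass. Several epithelial markers were low in control, with KRT15 at 9.21, TP63 at 8.06, DSG3 at 4.99 and EPCAM at 0.540. The fibroblast markers summed to 1924–1982 FPKM in control and 2789–3038 after butyrate. Most of that sum came from the collagen genes COL1A1, COL1A2 and COL3A1, at 1149, 459 and 313 in control. The others were much lower in control, with THY1 at 21.5, DCN at 6.90, PDGFRA at 0.306, LUM at 0.149 and PDGFRB at 0.0203. All 7 fibroblast markers that were tested rose. Of 8 neuronal and neuroendocrine markers 6 were tested and 4 rose, and the sum was 5.98–6.25 in control and 28.6–35.9 after butyrate. Rabs known from epithelia differed in level. RAB25, at a mean of 0.254 FPKM in control, and RAB17, at 0 in every control culture, were near the lowest of the family. RAB13, a Rab of epithelial tight junctions, was at 44.6 in control and 109 after butyrate. In RNA from whole cultures, fewer cells of a type and less RNA per cell cannot be told apart.

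The summed level of the Rab genes was higher after butyrate, though not every gene rose. Summed over the 60 entries, FPKM was 1682 ± 35.3 in control (SD, n = 3) and 1997 ± 40.8 after butyrate (SD, n = 3), which is 18.7% more. Much of the added FPKM came from RAB13 (44.6 to 109), RAB10 (85.5 to 139) and RAB26 (2.72 to 51.0). The Rab share of all FPKM was 0.253%, 0.241% and 0.249% in the control cultures and 0.32%, 0.327% and 0.313% in the butyrate cultures, so the groups did not overlap. Genes whose FPKM averaged 0.1 or more were compared by limma, which let the variance follow the mean, on log2(FPKM + 0.1). Log2 fold changes are on that scale, which understates changes in genes of low level. A gene is called higher or lower where its Benjamini-Hochberg adjusted p over all 15813 tested genes was under 0.05. Of the 60 Rab entries 56 were tested, of which 27 (48.2%) were higher, 9 (16.1%) were lower and 20 did not pass. RAB39B, 1 of the 27, was at 0 in every control culture and reached the mean of 0.1 only through the butyrate cultures. Among all tested genes 32.5% were higher and 25.9% were lower. The median log2 fold change was 0.27 for Rab genes and 0.10 for all tested genes. All 3 butyrate values lay above all 3 control values for 31 Rab genes and below them for 10, compared with 36.1% and 28.9% of all tested genes. Of the 27 higher genes 20 kept their call under every other setting in which they were tested. For 19 of them that was every setting tried, while RAB37 was too low to be tested at a mean FPKM of at least 1. Of the 9 lower genes 7 kept their call under every setting.

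A stricter call, named DEG here after the thresholds in the study's methods, asked for a p under 0.05 after Bonferroni correction and for a change of more than 2 on the log2 scale. By this call 2.46% of all tested genes were upregulated and 1.51% were downregulated. The upregulated Rab DEGs were 2, RAB26 and RAB40B, and 0 Rab genes were downregulated DEGs in limma, although 9 were lower at an unadjusted p under 0.05.

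**Figure D1:**
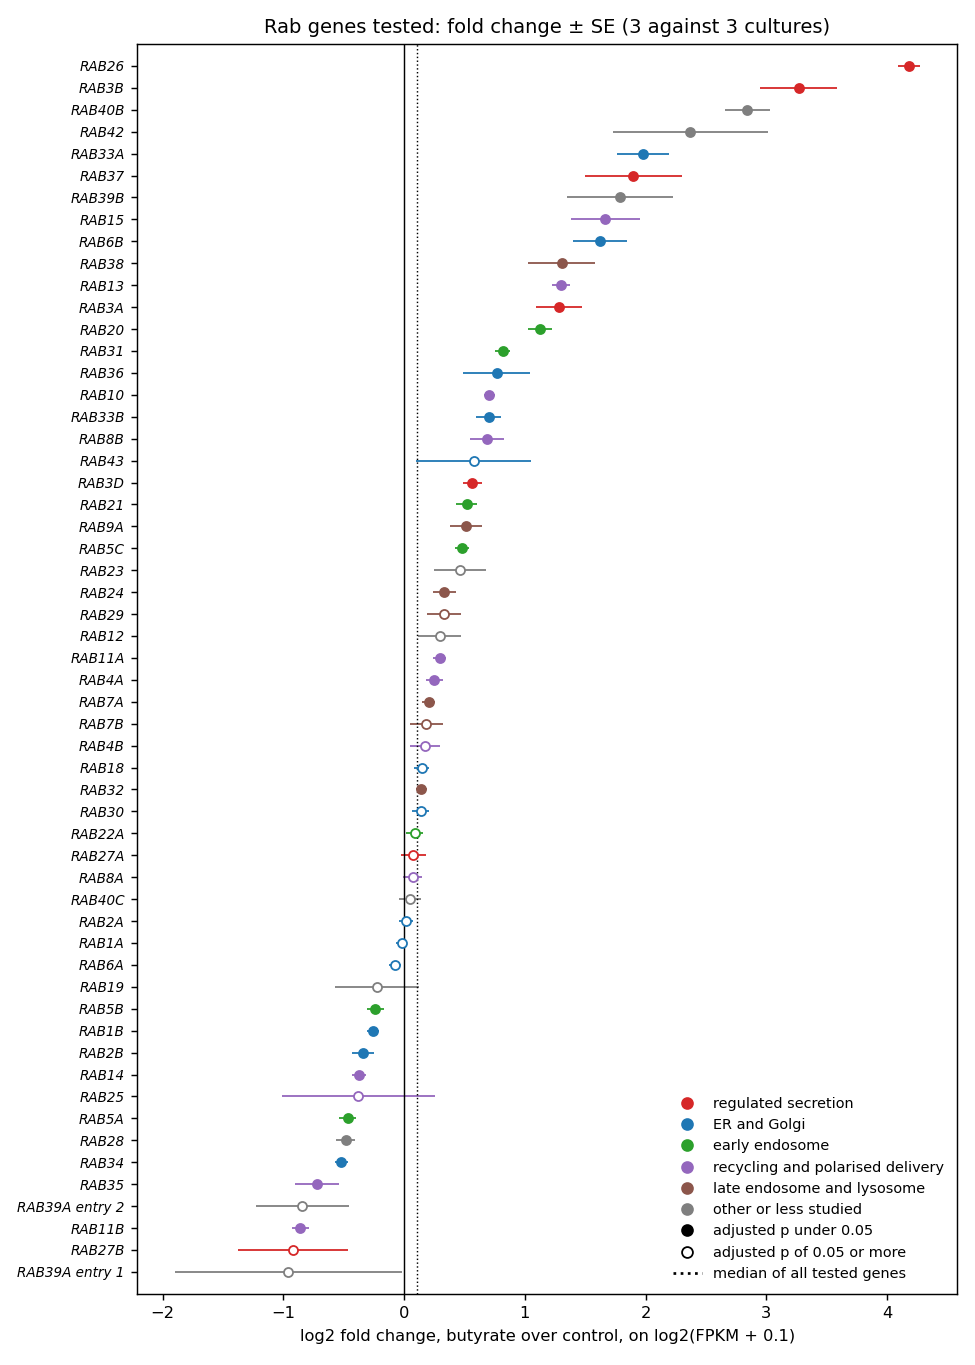
Log2 fold change (butyrate over control, on log2(FPKM + 0.1), with bars for the SE from limma, 3 against 3 cultures) of each of the 56 Rab entries tested, coloured by role, with filled points for an adjusted p under 0.05. RAB26 stands at 4.18 at the top, while most points lie between −1 and 1 around the dotted median of all tested genes at 0.10.

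Among all tested genes the share of lower genes differed with level, while the share of higher genes hardly did. At a mean FPKM under 3 over the 6 cultures, a value chosen after the data were seen, 14 Rab genes were tested, of which 57.1% were higher and 7.14% were lower, compared with 32.9% and 8.71% of all genes in that range. RAB39B, tested only because of its butyrate values, is among the 14. At or above 3, 42 Rab genes were tested, of which 45.2% were higher and 19% were lower, compared with 32.3% and 36.6% of all genes in that range.

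The secretory Rabs held the largest rises. Of 8 members 7 were tested, 5 of which rose (RAB26, RAB3B, RAB37, RAB3A and RAB3D), 0 of which fell, and 2 of which did not pass (RAB27A and RAB27B). That is 71.4% higher and 0% lower, beside 32.5% and 25.9% of all tested genes. Their median log2 fold change was 1.28, beside 0.10 for all tested genes. The 7 tested had already passed the low-level filter on their control mean alone. Summed FPKM of the list was 46.6 ± 4.25 in control and 116 ± 4.87 after butyrate (SD, n = 3 each), a 2.49-fold difference, and the list's share of Rab FPKM was 2.77% in control and 5.81% after butyrate. Without RAB26 the sum was 43.9 in control and 65.0 after butyrate, a 1.48-fold difference. Most of the added secretory Rab FPKM thus came from a single gene.

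RAB26, found on secretory granules of exocrine cells and on synaptic vesicles, lies at chr25:1680110-1686193. Its FPKM was 2.88, 2.47 and 2.82 in the control cultures and 50.7, 52.9 and 49.5 after butyrate. The groups lay far apart and each was tight, with means of 2.72 ± 0.226 and 51.0 ± 1.71 (SD, n = 3 each), an 18.7-fold difference. The log2 fold change was 4.18 ± 0.09 (SE), with an adjusted p of 3.2e-08 and a Bonferroni p of 3.9e-07 in limma. The confidence bounds of the single cultures did not meet, since the highest upper bound in control was 3.95 and the lowest lower bound after butyrate was 44.9. Among the 60 Rab entries RAB26 ranked 39th by mean FPKM in control and 13th after butyrate. There it was next to the housekeeping genes RAB5B at 50.3 ± 2.26 and RAB1B at 50.05 ± 1.04 FPKM, from which it did not differ beyond the spread.

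The 4 RAB3 genes, which act at the docking of secretory vesicles, differed in level by orders of magnitude. RAB3D, the form of exocrine granules, was the most abundant, with 35.1, 29.9 and 29.7 FPKM in control and 47.9, 48.0 and 44.1 after butyrate. The groups did not overlap, and its rise was the smallest of the secretory genes that passed, with a log2 fold change of 0.57 ± 0.08 (SE) and an adjusted p of 0.00033 in limma. RAB3A, the main form at synapses, is at chr7:4944325-4950014. It was at 2.70, 1.81 and 2.51 FPKM in control and 5.14, 6.87 and 5.39 after butyrate, a 2.48-fold difference, with a log2 fold change of 1.28 ± 0.19 (SE) and an adjusted p of 0.00047. RAB3B, another form of neurons and endocrine cells, lies at chr3:94917406-94985350. It was barely detected in control at 0.1, 0.219 and 0.107 FPKM and was at 2.70, 2.32 and 1.63 after butyrate. Its log2 fold change of 3.27 ± 0.32 (SE, adjusted p = 3.7e-05 in limma) became 1.48 with a pseudocount of 1 and 3.93 with a pseudocount of 0.01. Its Bonferroni p of 0.084 kept it from the DEG call, and all 3 control intervals reached down to 0. RAB3C was listed at 0, 0 and 0.109 in control and at 0.0465, 0 and 0.241 after butyrate, and was too low to be tested. Together the RAB3 genes summed to 34.1 ± 3.28 FPKM in control and 54.8 ± 3.03 after butyrate (SD, n = 3 each), and RAB3D made up most of the sum in both groups.

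The RAB27 genes, which tether granules and lysosome-related organelles and act in exosome release, did not pass the test. RAB27A was at 7.98, 6.90 and 8.15 FPKM in control and 8.15, 7.96 and 8.12 after butyrate, and its log2 fold change of 0.08 ± 0.10 (SE) had an adjusted p of 0.55 in limma. RAB27B scattered more, with 2.18, 1.09 and 2.30 in control and 1.61, 1.01 and 0.411 after butyrate. The RAB27B groups overlapped, and its log2 fold change of −0.92 ± 0.46 (SE) had an adjusted p of 0.12. Under quantile normalization it was −1.40 and passed as lower, with an adjusted p of 0.036 in limma, and with a culture left out it ran from −1.31 to −0.44.

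RAB37, known from the granules of mast cells, lies at chr19:57288652-57398998 and was low in every culture. It was at 0.259, 0.377 and 0.107 FPKM in control and at 1.57, 0.779 and 1.15 after butyrate. The groups did not overlap, with a log2 fold change of 1.90 ± 0.40 (SE) and an adjusted p of 0.0035 in limma, but the confidence bounds of single cultures did. The mast cell markers CPA3 and MS4A2 were at 0 in all 6 cultures, and no mast cell marker was high enough to be tested. The neuronal and neuroendocrine markers that rose were ENO2 (3.47 to 18.4 FPKM), CHGA (0.904 to 7.90), SNAP25 (1.35 to 3.86) and RBFOX3 (0.0268 to 1.02). SCG2 and CHGB did not pass, and SYP and SYT1 were too low to be tested. Scarce markers of other cell types rose too, namely the endothelial PECAM1 (1.54 to 3.95) and VWF (0.456 to 3.31) and the leukocyte marker CD68 (0.595 to 1.21). The endothelial CDH5 and the leukocyte PTPRC were at 0 in all 6 cultures, and CD3E and CSF1R were too low to be tested. The part of any of these cell types in the Rab values was not tested.

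**Figure D2:**
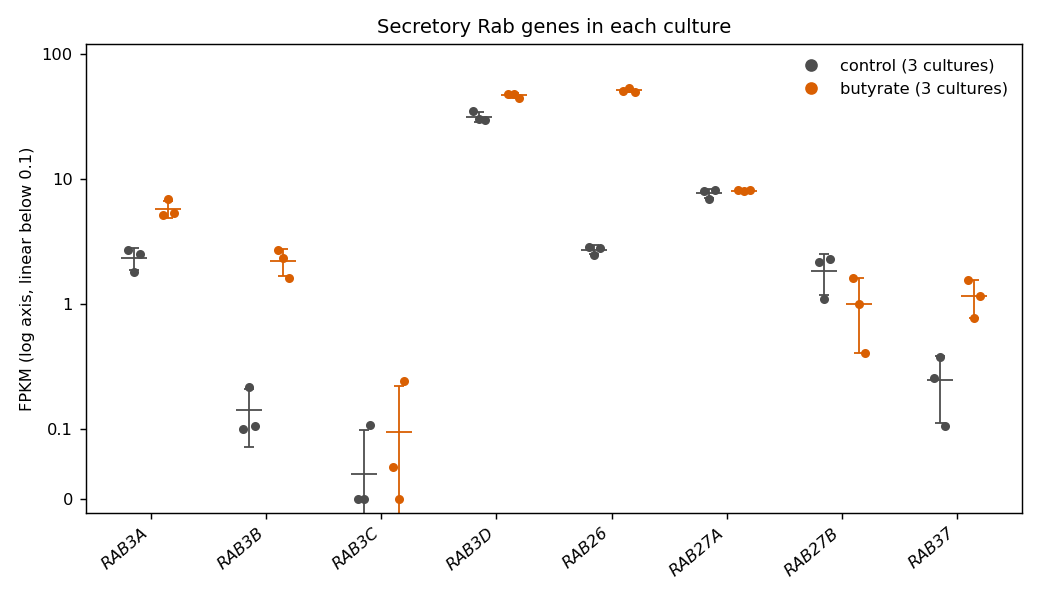
FPKM of the 8 secretory Rab genes in each culture, on an axis that is logarithmic above 0.1 and linear below, with points for cultures, a dash for the mean and bars for the SD (n = 3). RAB26 moves from below 3 to about the level of RAB3D or above, whereas RAB27A stays near 8 in both groups.

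The housekeeping Rabs changed in both directions. All 18 were tested, of which 6 rose (RAB4A, RAB5C, RAB7A, RAB10, RAB11A and RAB21), 6 fell (RAB1B, RAB5A, RAB5B, RAB11B, RAB14 and RAB35) and 6 did not pass (RAB1A, RAB2A, RAB6A, RAB8A, RAB18 and RAB22A). That is 33.3% in each direction, beside 32.5% higher and 25.9% lower among all tested genes, and the median log2 fold change was 0.042. The counts of higher and lower genes were 8 and 5 with the values rescaled to TPM and 9 and 5 under quantile normalization. Their log2 fold changes ran from −0.86 for RAB11B to 0.70 for RAB10, so that none approached the change of RAB26. Their summed FPKM was 1193 ± 13.7 in control and 1294 ± 36.9 after butyrate (SD, n = 3 each), 8.47% more, while their share of Rab FPKM was 70.9% in control and 64.8% after butyrate.

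RAB7A, the Rab of late endosomes and lysosomes, was the most abundant Rab gene in both groups. It was at 151, 160 and 166 FPKM in control and 190, 188 and 171 after butyrate, a 15.2% higher mean with a log2 fold change of 0.20 ± 0.06 (SE) and an adjusted p of 0.013 in limma. This call was lost with an adjusted p of 0.057 without control replicate 1, 0.058 without butyrate replicate 1 and 0.057 without butyrate replicate 2. It was also lost in a fit without the mean-variance trend (adjusted p = 0.077 in limma). RAB1A, which acts between the endoplasmic reticulum and the Golgi, was next in control, with 147, 143 and 145 FPKM in control and 140, 150 and 141 after butyrate. The RAB1A groups overlapped, and its log2 fold change of −0.02 ± 0.04 (SE, adjusted p = 0.73 in limma) turned to 0.10 with TPM and to 0.12 under quantile normalization, where it passed as higher with an adjusted p of 0.032. RAB2A, also of the early secretory pathway, was at 121, 115 and 122 FPKM in control and 118, 129 and 114 after butyrate, with a log2 fold change of 0.01 ± 0.06 (SE) that became 0.16 and passed under quantile normalization (adjusted p = 0.022 in limma). RAB18, found on the endoplasmic reticulum and on lipid droplets, was at 92.5, 83.6 and 91.6 in control and 92.5, 100.3 and 104 after butyrate, and its log2 fold change of 0.15 ± 0.06 (SE) did not pass, with an adjusted p of 0.072 in limma, which was 0.036 without butyrate replicate 1. RAB18 passed as higher with TPM, at a log2 fold change of 0.27, and under quantile normalization, at 0.30.

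Of the 6 most abundant housekeeping genes in control, RAB10 and RAB11A rose most. RAB10, which carries vesicles to the plasma membrane, including those with the glucose transporter of insulin-responsive cells, lies at chr11:73335433-73400455. It was at 87.2, 86.0 and 83.4 FPKM in control and 137, 145 and 136 after butyrate, with a log2 fold change of 0.70 ± 0.05 (SE) and an adjusted p of 3.5e-06 in limma. No butyrate culture came near a control culture, and the mean was 63% higher. RAB11A, the Rab of the recycling endosome, was at 137, 123 and 128 in control and 157, 167 and 151 after butyrate, with a log2 fold change of 0.29 ± 0.06 (SE) and an adjusted p of 0.0020.

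**Figure D3:**
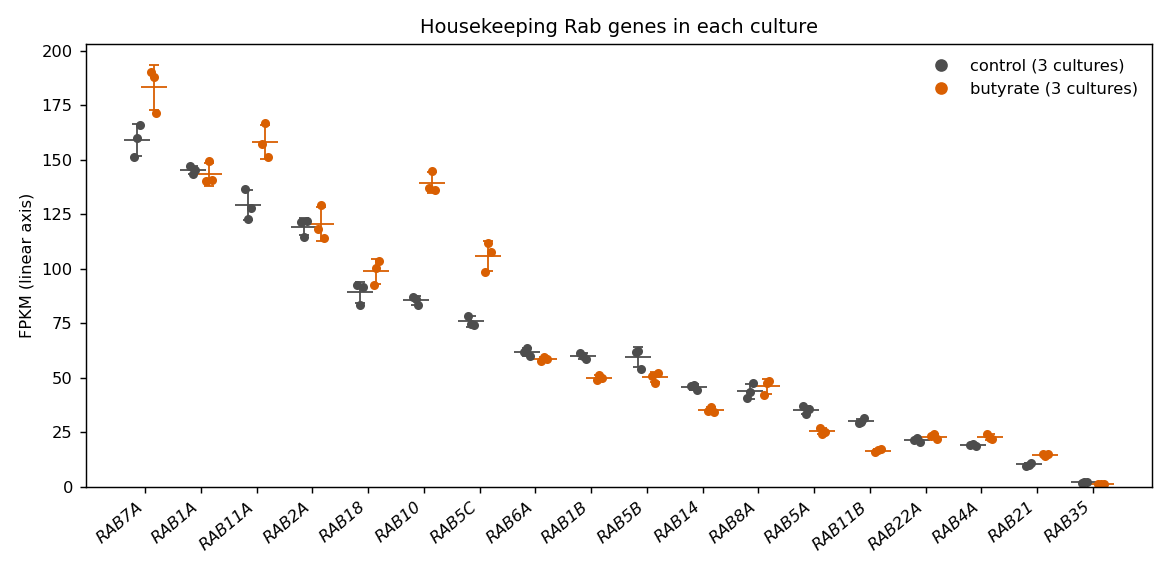
FPKM of the 18 housekeeping Rab genes in each culture on a linear axis, ordered by control mean, with points for cultures, a dash for the mean and bars for the SD (n = 3). RAB10 and RAB5C show butyrate values clearly above control, RAB14, RAB5A and RAB11B lie below control, and RAB1A and RAB2A overlap.

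Among the ER and Golgi Rabs 13 were tested, 4 of which rose (RAB33A, RAB6B, RAB36 and RAB33B) and 3 of which fell (RAB34, RAB2B and RAB1B), with a median log2 fold change of 0.14. These are 30.8% and 23.1%, near the shares of all tested genes. RAB33A, a Golgi Rab expressed in brain and immune cells, lies at chrX:13991497-14013045 and was at 2.07, 2.64 and 1.49 FPKM in control and 8.55, 9.36 and 6.97 after butyrate. The groups did not overlap, and the log2 fold change was 1.98 ± 0.21 (SE) with an adjusted p of 6.7e-05 in limma. Its span overlaps AIFM1, which was at 48.1 ± 1.17 FPKM in control and 47.7 ± 6.22 after butyrate (SD, n = 3 each). Whether the counting used strand is not stated. Its paralogue RAB33B, which acts in autophagosome formation, rose less, from 6.66 to 10.9, a log2 fold change of 0.70. RAB6B, the neuronal form of the Golgi Rab RAB6, was at 0.469, 0.646 and 0.635 in control and 1.90, 2.09 and 1.98 after butyrate, with a log2 fold change of 1.62 ± 0.22 (SE) and an adjusted p of 0.00027. RAB36 had an adjusted p of 0.042 and lost its call with an adjusted p of 0.11 without control replicate 1, 0.11 without control replicate 3, 0.10 without butyrate replicate 1 and 0.13 without butyrate replicate 2. Under quantile normalization its log2 fold change was 0.22 instead of 0.77, with an adjusted p of 0.53, and without the low-level filter its adjusted p was 0.067. It also overlaps RSPH14, which rose from 0.209 to 2.25 FPKM. RAB2B, a paralogue of RAB2A, fell by 0.34 on the log2 scale, a call that was lost with TPM (adjusted p = 0.067 in limma). RAB34, which positions lysosomes and acts in cilium formation, was the most abundant gene to fall, from 81.8 ± 3.57 to 57.0 ± 1.79 FPKM (SD, n = 3 each), a log2 fold change of −0.52.

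Among the early endosome Rabs 7 were tested, 4 of which rose (RAB20, RAB31, RAB21 and RAB5C) and 2 of which fell (RAB5A and RAB5B), with a median log2 fold change of 0.48. That is 57.1% higher and 28.6% lower, beside 32.5% and 25.9% of all tested genes. RAB20, which acts at maturing phagosomes, is at chr12:89181692-89212365. It was at 15.4, 11.8 and 13.9 FPKM in control and 28.8, 30.8 and 29.8 after butyrate, with a log2 fold change of 1.13 ± 0.10 (SE) and an adjusted p of 2.1e-05 in limma. The butyrate cultures were all close to one another and above every control culture. RAB31, which belongs to the RAB5-like branch and carries cargo between the trans-Golgi network and endosomes, rose from 41.6 ± 2.61 to 73.2 ± 1.46 (SD, n = 3 each), a log2 fold change of 0.82. RAB21, a regulator of integrin traffic, rose from 10.3 to 14.8, a log2 fold change of 0.52.

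The 3 RAB5 genes, whose products drive fusion of early endosomes, moved apart. RAB5C rose from 75.9 ± 2.40 to 106 ± 6.87 FPKM (SD, n = 3 each), a log2 fold change of 0.48 with an adjusted p of 0.00014 in limma. RAB5A fell from 35.2 ± 1.84 to 25.4 ± 1.36, a log2 fold change of −0.47 with an adjusted p of 0.00048. RAB5B was at 59.4 in control and 50.3 after butyrate, a log2 fold change of −0.24 with an adjusted p of 0.017, a call that was lost with an adjusted p of 0.067 without control replicate 1, 0.068 without control replicate 2 and 0.066 without butyrate replicate 2. With TPM the RAB5B value was −0.12 with an adjusted p of 0.18, and the call was also lost under quantile normalization (adjusted p = 0.083) and without the trend (adjusted p = 0.064). Their sum differed little, at 171 ± 6.75 in control and 182 ± 4.98 after butyrate (SD, n = 3 each).

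Among the Rabs of recycling and polarised delivery 12 were tested, 6 of which rose (RAB15, RAB13, RAB10, RAB8B, RAB11A and RAB4A) and 3 of which fell (RAB11B, RAB35 and RAB14), with a median log2 fold change of 0.21. That is 50% higher and 25% lower, beside 32.5% and 25.9% of all tested genes. RAB13, which delivers cargo to tight junctions of epithelial cells, is at chr3:16511100-16515182. It was at 39.9, 45.1 and 48.7 FPKM in control and 107, 108 and 113 after butyrate, and it ranked 14th among the Rabs in control and 6th after butyrate. The log2 fold change was 1.30 ± 0.07 (SE) with an adjusted p of 1.6e-06 in limma, the largest rise among Rabs with a control mean above that of RAB20. RAB15, which acts in endosomal recycling and is known from neurons, was at 1.00, 0.583 and 0.599 in control and 1.82, 2.82 and 2.90 after butyrate, with a log2 fold change of 1.67 ± 0.28 (SE) and an adjusted p of 0.0010. RAB8B, a Rab of delivery to the plasma membrane, rose from 3.04 to 4.93, a log2 fold change of 0.69, whereas its paralogue RAB8A was at 43.9 and 46.1 and did not pass.

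RAB11B, the second form of the recycling endosome Rab, showed the largest fall in the family by a gene that passed. At chr7:18249536-18259144, it was at 29.5, 29.8 and 31.5 FPKM in control and 15.95, 16.8 and 17.2 after butyrate. Every control value was above every butyrate value, and the mean fell by 45%, with a log2 fold change of −0.86 ± 0.07 (SE), an adjusted p of 9.7e-06 and a Bonferroni p of 0.015 in limma. RAB35, which acts in fast recycling and in cytokinesis, fell from 2.11 ± 0.155 to 1.24 ± 0.0894 (SD, n = 3 each), a log2 fold change of −0.72. RAB14, a Rab of the Golgi and endosomes, fell from 45.8 to 35.2, a log2 fold change of −0.38. RAB4A, a Rab of fast recycling, rose by 0.25 on the log2 scale, and its span holds SPHAR and overlaps CCSAP.

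Among the Rabs of late endosomes and lysosomes 7 were tested, 5 of which rose (RAB38, RAB9A, RAB24, RAB7A and RAB32) and 0 of which fell, with a median log2 fold change of 0.33. That is 71.4% higher and 0% lower, beside 32.5% and 25.9% of all tested genes. RAB38, which acts with RAB32 in making melanosomes and other lysosome-related organelles, was at 1.25, 0.650 and 0.940 FPKM in control and 1.85, 2.77 and 2.75 after butyrate. The log2 fold change was 1.30 ± 0.28 (SE) with an adjusted p of 0.0035 in limma. RAB32 was far more abundant and differed little, at 55.9 ± 0.755 and 61.7 ± 0.984 (SD, n = 3 each). Its log2 fold change of 0.14 had an adjusted p of 0.030, which was 0.061 without control replicate 1, 0.064 without control replicate 3 and 0.098 without the mean-variance trend. The melanocyte markers DCT, MLANA, TYR and TYRP1 were at 0 in all 6 cultures, while PMEL rose from 1.47 to 8.39. RAB9A, which returns cargo from late endosomes to the Golgi, rose from 19.2 to 27.1, and its adjusted p of 0.0087 became 0.056 without butyrate replicate 2. RAB24, a Rab of autophagy, rose from 20.4 to 25.8, and its adjusted p of 0.014 became 0.053 without control replicate 1 and 0.053 without control replicate 2.

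In the remaining group of other or less studied Rabs 10 were tested, 3 of which rose (RAB40B, RAB42 and RAB39B) and 1 of which fell (RAB28, a Rab of cilia). That is 30% higher and 10% lower, beside 32.5% and 25.9% of all tested genes. RAB39B was tested only because of its butyrate values. RAB40B, which carries a SOCS box that joins it to a Cullin ubiquitin ligase, lies at chr19:50579227-50604299. Its FPKM was 0.669, 0.972 and 0.860 in control and 6.18, 7.37 and 6.13 after butyrate, a 7.87-fold difference between groups that did not overlap. The log2 fold change was 2.84 ± 0.19 (SE), with an adjusted p of 3.4e-06 and a Bonferroni p of 0.0034 in limma. The Bonferroni p was 0.097 without control replicate 3, 0.30 without butyrate replicate 1, 0.36 without butyrate replicate 2, 0.26 without butyrate replicate 3 and 0.068 in a fit without the mean-variance trend, so the DEG call was lost in each of these. RAB26 kept its DEG call in all of them.

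RAB42 and RAB39B were close to the detection limit. RAB42, a little-studied Rab, was at 0.573, 0 and 0.300 FPKM in control and 1.70, 1.02 and 1.73 after butyrate, with a log2 fold change of 2.37 ± 0.64 (SE) and an adjusted p of 0.012 in limma. The adjusted p was 0.065 without butyrate replicate 1, 0.063 without butyrate replicate 3 and 0.055 with a pseudocount of 0.01, so the call was lost in each of these. RAB39B, a neuronal Rab, was listed at 0 in all 3 control cultures and at 0.202, 0.199 and 0.356 after butyrate, so no fold is given, and it passed the low-level filter only through the butyrate cultures. The RAB39B call was lost under quantile normalization (adjusted p = 0.14 in limma). Its log2 fold change was 0.32 with a pseudocount of 1 and 4.66 with a pseudocount of 0.01. RAB39A was split into 2 short entries on chromosome 15, neither of which passed, and since reads of 1 gene may be divided between them both values are uncertain. The entry that starts at 17798222 had an adjusted p of 0.091, which was 0.0036 without butyrate replicate 1, on the side of a lower level after butyrate. RAB23, a regulator of Hedgehog signalling, was at 18.7, 11.4 and 12.3 FPKM in control and 24.7, 16.04 and 17.4 after butyrate. Its adjusted p of 0.094 in limma was 0.023 without control replicate 1 and 0.046 with TPM. RAB28 fell from 15.6 ± 0.608 to 11.2 ± 0.389 (SD, n = 3 each), a log2 fold change of −0.49.

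Ratios between paralogues were computed within each culture, where scaling of a whole library cancels. Of 16 pairs compared, 13 had ratios that did not overlap between the groups, and 6 differed by at least 1 on the log2 scale. Of all tested genes, 36.1% lay wholly above control and 28.9% wholly below, and no such share was computed for other gene pairs. Pairs of 1 subfamily share genes. RAB3A/RAB3B and RAB3B/RAB3D, among the 6, rest on a RAB3B mean of 0.142 FPKM in control. With 3 cultures against 3 the smallest p that a two-sided exact permutation test allows is 0.1, which is 0.123 after Benjamini-Hochberg adjustment over the 16 pairs, so no pair could pass. RAB11A exceeded RAB11B 4.64, 4.12 and 4.07-fold in control and 9.85, 9.94 and 8.81-fold after butyrate, a difference of 1.15 on the log2 scale. RAB5A was at 0.464 ± 0.0179 of RAB5C in control and 0.241 ± 0.0291 after butyrate (SD, n = 3 each). RAB40B was at 0.0530 of RAB40C in control and at 0.401 after butyrate, while RAB40C itself was at 15.8 and 16.4 FPKM. RAB6A exceeded RAB6B 108-fold in control and 29.5-fold after butyrate. RAB40B and RAB6B, the scarcer forms of their pairs, thus gained on the other form, whereas RAB11B and RAB5A, also the scarcer forms, lost. The ratios of RAB4A to RAB4B, RAB7A to RAB7B and RAB27A to RAB27B overlapped between the groups.

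**Figure D4:**
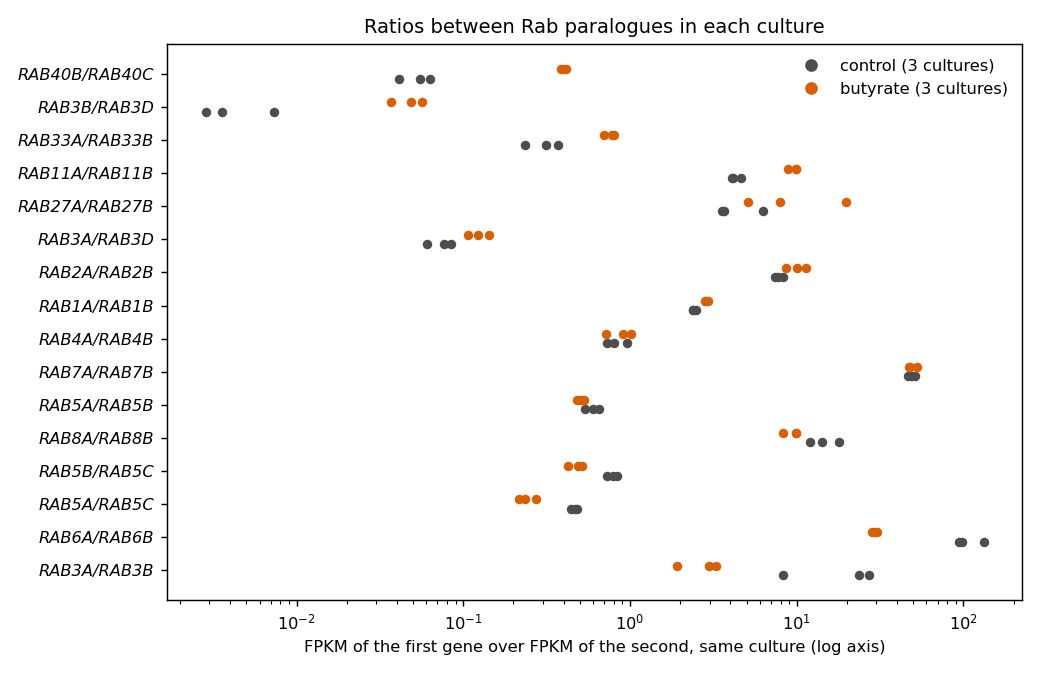
Ratio of FPKM between 16 pairs of Rab paralogues in the same culture, on a log axis, with 1 point for each of the 3 control and 3 butyrate cultures. RAB40B/RAB40C, RAB3B/RAB3D, RAB33A/RAB33B and RAB11A/RAB11B move to the right after butyrate, RAB3A/RAB3B and RAB6A/RAB6B move to the left, and RAB7A/RAB7B overlaps.

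The genes that load, switch and read Rab proteins were taken from a list of 127 names, of which 126 were distinct genes in the tables and 118 were tested. Of these 45 (38.1%) were higher, 21 (17.8%) were lower and 0 were DEGs, beside 32.5%, 25.9% and the DEG shares of 2.46% and 1.51% for all tested genes. Their median log2 fold change was 0.13. Under quantile normalization the counts were 33 and 26. RIMS3, RIMS4, DENND1C and RINL, 4 of the 118, passed the low-level filter only through the butyrate cultures and are all among the 45.

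Most genes of prenylation and recycling were lower. Of 8 genes tested 6 (75%) fell and 0 rose, with a median log2 fold change of −0.33. Among all tested genes 25.9% were lower and 32.5% were higher. RABGGTA, the alpha subunit of the Rab prenyl transferase, was at 46.6, 52.8 and 47.7 FPKM in control and 20.5, 21.1 and 23.9 after butyrate. It fell by 55.4%, with a log2 fold change of −1.16 ± 0.08 (SE) and an adjusted p of 4.9e-06 in limma. RABGGTB, the beta subunit, fell from 12.3 ± 1.13 to 7.44 ± 0.486 (SD, n = 3 each), a log2 fold change of −0.72. RABIF, RABAC1 and GDI2, which extracts prenylated Rabs from membranes, fell by 0.44, 0.43 and 0.13 on the log2 scale. The escort proteins CHM and CHML, which present Rabs to the transferase, did not pass, with log2 fold changes of 0.35 and 0.08.

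Of 33 exchange factors tested 13 (39.4%) rose and 5 (15.2%) fell, beside 32.5% and 25.9% of all tested genes. RAB3IL1, which is related to the RAB8 exchange factor RAB3IP, was at 0.154, 0.333 and 0.394 FPKM in control and 2.67, 2.52 and 1.86 after butyrate, with a log2 fold change of 2.68 ± 0.32 (SE) and an adjusted p of 0.00012 in limma. RAB3IP itself rose from 0.883 ± 0.0544 to 3.23 ± 1.06 (SD, n = 3 each), a log2 fold change of 1.71. RINL, of the family that activates RAB5, was at 0.0635, 0 and 0 FPKM in control and 0.325, 0.286 and 0.164 after butyrate, and its call was lost under quantile normalization. DENND1C, of the DENN family, was low as well, at 0.183, 0 and 0 in control and 0.118, 0.723 and 0.474 after butyrate, and its groups overlapped. The DENND1C call was lost without control replicate 2 or 3 or butyrate replicate 2 or 3, with an adjusted p between 0.13 and 0.16 in limma.

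Of 38 GTPase-activating proteins tested 16 (42.1%) rose and 3 (7.89%) fell, beside 32.5% and 25.9% of all tested genes. TBC1D10C, an inhibitor of Ras and calcineurin in lymphocytes as well as a TBC-domain protein, was at 0.216, 0.114 and 0.822 FPKM in control and 3.17, 5.47 and 4.06 after butyrate. The groups did not overlap, with a log2 fold change of 3.42 ± 0.50 (SE) and an adjusted p of 0.00043 in limma. TBC1D7, better known as a subunit of the tuberous sclerosis complex, rose from 16.7 ± 1.88 to 49.1 ± 2.21, and TBC1D2B from 1.35 ± 0.248 to 4.34 ± 0.357 (SD, n = 3 each).

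Of 39 effectors tested 16 (41%) rose and 7 (17.9%) fell, beside 32.5% and 25.9% of all tested genes. RIMS3, a short relative of the RAB3 effector RIM of the presynaptic active zone, was at 0.0164, 0.254 and 0.0168 FPKM in control and 2.45, 4.07 and 2.52 after butyrate. Its log2 fold change of 4.17 rests on a control level below the filter. RIMS4, of the same family, was at or near 0 in control and at 0.506, 0.610 and 0.532 after butyrate. RIMS1, RIMS2 and RPH3A, which bind RAB3 directly, were too low to be tested. UNC13D, a RAB27 effector of granule priming, rose from 0.533 ± 0.186 to 1.82 ± 0.0758 (SD, n = 3 each), a log2 fold change of 1.65. Of the SYTL genes on the list, SYTL1 rose from 15.2 to 24.6 FPKM, SYTL2, SYTL3 and SYTL4 did not pass, and SYTL5 was too low to be tested. MLPH did not pass. The largest fall by an effector that passed was that of RABEP2, from 24.5 ± 1.73 to 11.5 ± 2.24 FPKM (SD, n = 3 each), a log2 fold change of −1.10.

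**Figure D5:**
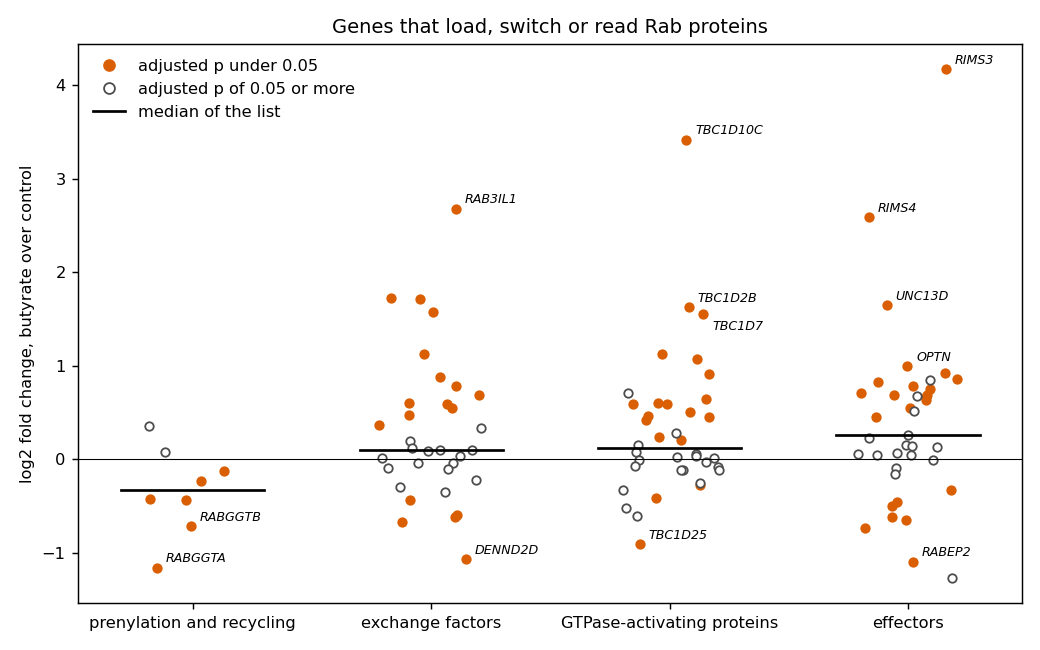
Log2 fold change (butyrate over control, on log2(FPKM + 0.1)) of the 118 tested genes that load, switch or read Rab proteins, in 4 groups, with filled points for an adjusted p under 0.05 and a bar for the median of each group. The median of the prenylation and recycling group is −0.33, and the highest points are RIMS3 at 4.17, which passed the filter only through butyrate, and TBC1D10C at 3.42.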

How the data were processed

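RNA-seq of 3 butyrate-treated and 3 control REPC cultures was used. Per the labels and the study's methods, the authors trimmed reads with Trim Galore 0.4.1, aligned them with STAR, and deposited Cufflinks FPKM per gene with confidence bounds. The submitters' processing notes name UMD3.1. Other versions and the strand setting are not given in the sources used here. The tables hold no counts, library read totals given with the study were not used here, and the deposited bounds carry the precision. Starts were converted to 1-based positions.

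Entries were joined by position, 2 failed estimates were dropped, and 15813 genes whose FPKM averaged 0.1 or more were fitted with limma 3.58.1 in R 4.3.3 (trend, log2(FPKM + 0.1), no covariate). The code was tested on simulated data. Paralogue ratios were compared by exact permutation in scipy 1.17.1. Alternatives were pseudocounts of 0.01 and 1, no filter, a mean FPKM of at least 1, rescaling to TPM, quantile normalization, no trend, the replicate number as a block, other DEG thresholds and each culture left out in turn. The 2 older or alternative names DENND2B and ZFYVE20 were matched through synonyms in a RefSeq table (ARS-UCD2.0), used for names alone.

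Values are given in every culture for the secretory list, the 10 other Rab genes with the largest change among those called, and the 6 housekeeping genes highest in control. From the list of regulators, the 10 with the largest change among those called are named, and others were named after their values were seen. Members and lists were chosen with earlier results of these data known. The values of 1 gene of the regulator list are not reported here.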

Additional observations from a re-analysis of the deposited data

How the results depend on the processing

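The counts of Rab genes and of regulators that were higher or lower stayed within 1.5 times their values under every alternative. The upregulated Rab DEGs, 2 as given, numbered 1 without the mean-variance trend, 4 with Benjamini-Hochberg adjustment, 4 with a log2 fold change beyond 1, and 1 to 2 with a culture left out. The median log2 fold change of the secretory list, 1.28 as given, was 0.79 with a pseudocount of 1, 0.92 without a filter, 0.92 with a mean FPKM of at least 1, 1.10 under quantile normalization and 1.12 to 1.39 with a culture left out. That of the housekeeping list, 0.042 as given, was 0.16 after rescaling to TPM and 0.14 under quantile normalization. The median of all tested genes moved by 0.12 with TPM and by −0.15 under quantile normalization. With TPM 32 Rab genes were higher and 7 were lower, and RAB18, RAB22A, RAB23, RAB29 and RAB30 passed as higher.

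Genes that changed sign had not passed the test. RAB1A turned to 0.10 (TPM) and 0.12 (quantile), RAB6A to 0.049 (TPM) and 0.012 (quantile) and RAB7B to −0.0010 (quantile). With a culture left out, values ran from −0.0012 to 0.93 for RAB43, −0.031 to 0.11 for RAB40C, −0.040 to 0.051 for RAB2A, −0.45 to 0.059 for RAB19, −0.88 to 0.32 for RAB25 and −1.87 to 0.32 for 1 RAB39A entry. The causes were not tested.

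Replicate numbers are shared between the groups, but deviations of same-numbered cultures correlated at 0.023, −0.0043 and 0.0018, so the numbers were not treated as pairs, and 2 of 6 cultures correlated best with their own number. With the replicate number as a block 28 Rab genes were higher and 9 lower, with 2 DEGs, and 42 regulators were higher and 19 lower. RAB23 (adjusted p = 0.0028 in limma) and RAB12 (0.024) then passed as higher, and RAB32 (0.060) and DENND1C (0.083) lost their calls. Genes of low FPKM have wide confidence bounds, which limits what can be said of RAB3C, RAB9B, RAB17 and RAB44, none of which was tested.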
